A study of Homo sapiens with 6 samples.

Results

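The 33 genes described here encode the machinery that copies DNA in S phase and the proteins that supply or time it. They were the rows of the deposited gene table whose gene name was on a list of replication genes, and all 33 were found among the 11658 genes of that table. The list names genes by function, and its rule has no threshold on a measured value. The labels give the cells as MKN45, a human line established from gastric cancer and grown in culture. One group of 3 RNA-seq libraries, called target here, came from cells transfected with an shRNA that targets tcons_00001221, and the other 3 came from cells given a negative control shRNA. An shRNA is a short hairpin that cells cut into a small RNA, which directs the breakdown of a matching transcript. The labels name no clone, time after transfection or batch, and do not say whether the 3 libraries of a group came from separate cultures, so the tests below measure a spread between libraries that may be technical. The level of tcons_00001221 itself was not analysed here.

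Replication starts when the origin recognition complex, CDC6 and CDT1 load the MCM helicase on DNA before S phase. Kinases then add CDC45 and the GINS complex to turn MCM into an active helicase, and DNA polymerases, the PCNA clamp and its loader RFC follow the fork. Many genes of this machinery are transcribed at the entry into S phase under E2F factors, and their RNA is widely used as a sign of proliferating cells, gastric cancer cells included.

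Expression was given as FPKM, a fragment count divided by transcript length and by the mapped total, so that genes can be compared per length, and depth is unknown. The FPKM of all genes in the table summed to between 186226 and 192101 in the target libraries and to between 187553 and 191237 in the control libraries. The cell line was checked against marker lists. Of 22 epithelial and MKN45 markers 10 were in the gene table, among them MET at 77.0 to 81.6 FPKM in target and 79.3 to 88.5 FPKM in control libraries, and MUC13 at 77.3 to 80.6 FPKM in target and 78.1 to 81.0 FPKM in control libraries. CDH1, KRT19, KRT20, CDX2, CEACAM5, CEACAM6, CLDN3, TFF3, GRHL2, ESRP1, VIL1 and LGALS4 were not among the genes analysed. Of 18 mesenchymal markers 11 were in the table, led by COL5A1 at 219 to 224 FPKM in target and 252 to 275 FPKM in control libraries and VIM at 179 to 201 FPKM in target and 196 to 209 FPKM in control libraries. COL1A2, COL3A1, COL5A2, COL6A3, SPARC, THY1 and PDGFRB were not among the genes analysed. COL6A1, FN1, LUM and CDH2 averaged 25.6, 24.1, 12.2 and 5.91 FPKM over all libraries. COL1A1, COL6A2, ZEB1, TWIST1 and DCN averaged only 1.26 to 3.34 FPKM. Of the epithelial markers, KRT18 and MUC1 averaged 59.0 and 47.8 FPKM, and EPCAM and TFF1 7.05 and 0.922 FPKM. KRT8, ELF3 and CLDN7 averaged 35.0, 25.4 and 19.7 FPKM. Several defining epithelial markers were therefore absent from the data used, while some mesenchymal markers, COL5A1 and VIM among them, were abundant and others low or absent. The marker levels alone thus did not establish the cell line named by the labels. The 10 epithelial markers summed to 347 to 359 FPKM in target and 363 to 379 FPKM in control libraries, and the 11 mesenchymal markers to 479.8 to 496 FPKM in target and 539 to 560.3 FPKM in control libraries. Neither sum overlapped between groups. In target libraries 2 and 3 the epithelial gene CLDN4 stood apart, at 0.0586 and 0.175 FPKM, where the other libraries had 10.0 to 10.96 FPKM. Without CLDN4 the epithelial sums overlapped, at 347 to 356 FPKM in target and 352 to 368 FPKM in control libraries. No marker passed the test, and the part of these differences in the results below was not tested.

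Replication genes were well expressed. Their means over all 6 libraries ran from 3.04 FPKM for GINS3 to 90.8 FPKM for RRM1, with a median of 19.1 FPKM against 6.17 FPKM for all tested genes, as the plot of levels by library shows. Together they summed to 949.9, 963 and 972 FPKM in the target libraries, against 1000.4, 992 and 1008 FPKM in the control libraries, which was 0.495% to 0.522% of the total in target and 0.520% to 0.538% in control libraries. The sum was lower in all target libraries than in any control library, though the smallest gap, between 972 and 992 FPKM, was narrow. As a share of the total the groups overlapped, with 0.522% in target library 3 and 0.520% in control library 2. The difference was not tested, and not every role went that way: the GINS sum and PCNA were higher in all target libraries. In bulk RNA a lower sum cannot tell fewer cells in S phase from less RNA per cell.

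**Figure D1:**
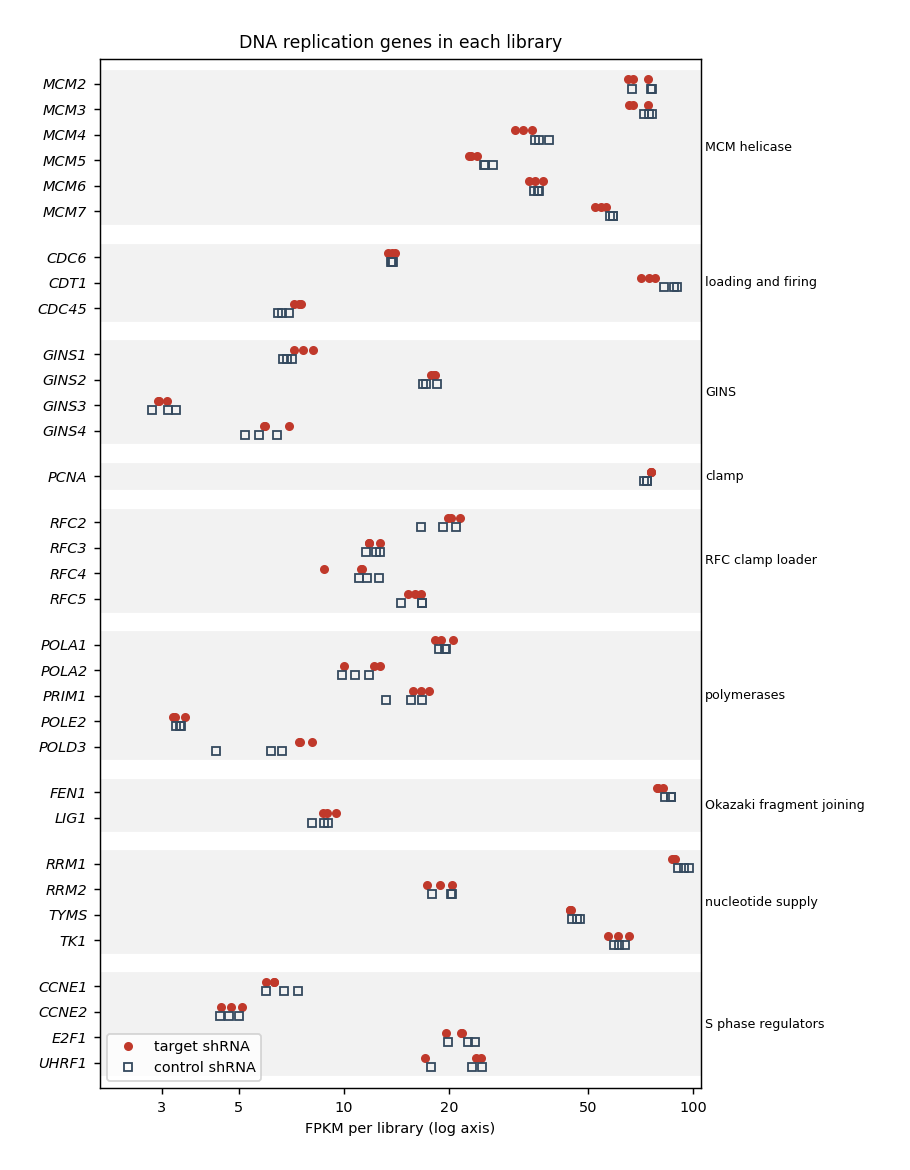
Level of each of the 33 DNA replication genes (FPKM, log axis) in the 3 target shRNA libraries (filled circles) and the 3 control shRNA libraries (open squares), grouped by role. Most genes lie at overlapping levels in both groups, from about 2.997 FPKM for GINS3 to 87.8 FPKM for RRM1 in target libraries, and POLD3 and CDT1 are among those whose groups are apart.

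The comparison of target with control libraries asks what the shRNA does to the RNA of the cell. No replication gene passed it: with limma on log2(FPKM + 1) and Benjamini-Hochberg adjustment over 10675 tested genes, 0 of 33 reached an adjusted p of 0.05, where 80 genes in all did, or 0.749% of those tested. Adjusted p-values of the 33 ran from 0.143 for CDT1 to 0.998 for RFC5. At an unadjusted p under 0.05, 6 of 33 replication genes were lower in target libraries (MCM4, MCM5, MCM7, CDT1, FEN1 and RRM1), where 4.71% of all tested genes were, and 2 of 33 were higher (CDC45 and POLD3), where 11.4% of all tested genes were. Groups that did not overlap were found for 7 genes as lower in target libraries, TYMS added to those 6, against a background of 7.18%, and for 4 as higher (CDC45, GINS1, PCNA and POLD3), against a background of 16.6%. The share on the lower side was thus above the background and the share on the higher side below it, with no test of either. Because the list was chosen with earlier results of these data known, these shares only describe it.

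Differences were small. Log2 changes, target minus control, ran from -0.22 for CDT1 to 0.39 for POLD3, with 22 estimates below 0 and 11 above, and a median of -0.01. Over all tested genes the median was 0.03, with 4141 estimates below 0 and 6534 above, so the replication genes sat slightly to the low side of the whole table, as the histogram of changes shows. Without target library 1 the 33 genes split almost evenly, with 17 estimates below 0 and 16 above. Their median was then -0.002, against 0.037 over all tested genes. For 26 of the 33 genes, or 78.8%, the 95% interval of the change stayed within 1.25-fold either way, which held for 63.2% of all tested genes. The spread between libraries of a group was also low, with a median SD of 0.07 on the log2 scale for the 33 genes and 0.09 for all tested genes. Of the 7677 tested genes with a mean in the range of the replication genes, 58 passed the test.

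**Figure D2:**
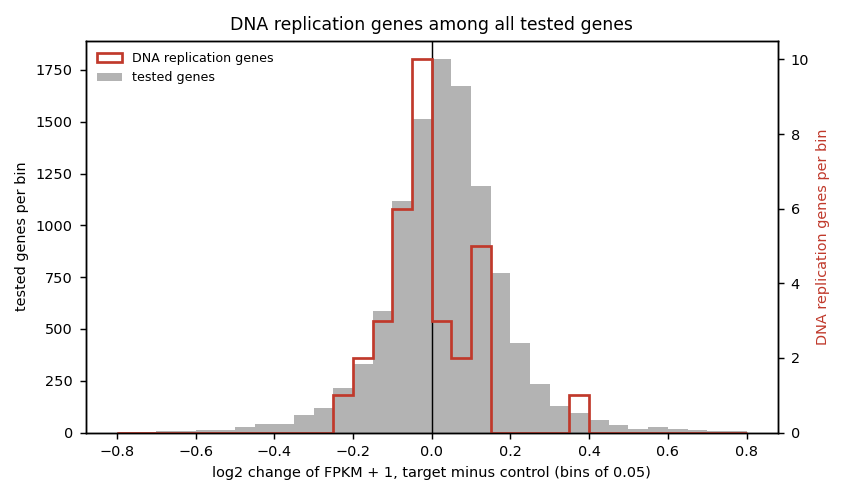
Number of genes by log2 change of FPKM + 1, target minus control, in bins of 0.05, for all 10675 tested genes (grey, left axis) and the 33 replication genes (red outline, right axis); 47 tested genes lie outside the axis. The grey peak sits just above 0, the median being 0.03, and the red outline has its peak just below 0, the median being -0.01.

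Letters that E2F factors are known to bind were found in the promoters of 18 of these genes. In RefSeq promoter windows (GRCh38.p14, from 250 bases before to 50 after the annotated start), 28 of the 33 genes were found. MCM4, MCM5, GINS4, POLD3 and CCNE2 were not. Windows were searched on both strands for the E2F letters TTTCCCGC, TTTGGCGC, TTTCGCGC and TTTGCCGC, matches that overlap being counted apart. Of the 37 windows of the replication genes 19 held a match, or 51.4%, against 5.15% of the 12050 windows of all tested genes and 3.31% of all 35116 windows. By role, matches were found in all 4 MCM genes with a window, in 3 of 3 GINS genes and in 3 of 4 polymerase genes, but in 1 of 4 RFC genes and 1 of 4 nucleotide supply genes. The letters CCAAT, bound by the factor NF-Y, were in 59.5% of the windows of replication genes and 34.8% of those of all tested genes. TTTGAA, the letters of the cell cycle homology region found in many mitotic promoters, were in 2.70% and 10.1%. The windows of 5 genes show the range, from MCM6, with 4 matches, to FEN1, a flap endonuclease gene with none. Capitals mark E2F letters on either strand.
MCM6 (chr2:135876394-135876693, - strand): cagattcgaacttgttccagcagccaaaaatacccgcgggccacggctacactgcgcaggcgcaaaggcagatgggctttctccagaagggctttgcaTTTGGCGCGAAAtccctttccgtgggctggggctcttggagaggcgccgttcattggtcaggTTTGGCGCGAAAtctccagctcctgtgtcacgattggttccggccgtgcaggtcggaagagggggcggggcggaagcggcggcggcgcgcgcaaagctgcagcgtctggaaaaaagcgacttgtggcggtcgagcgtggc
CDT1 (chr16:88803539-88803838, + strand): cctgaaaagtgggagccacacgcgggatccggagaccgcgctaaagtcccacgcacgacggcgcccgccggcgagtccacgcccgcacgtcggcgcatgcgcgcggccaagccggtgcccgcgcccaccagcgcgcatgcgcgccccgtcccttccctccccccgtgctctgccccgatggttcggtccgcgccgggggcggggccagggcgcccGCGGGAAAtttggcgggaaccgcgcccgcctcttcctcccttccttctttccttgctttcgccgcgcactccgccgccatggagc
PCNA (chr20:5126573-5126872, - strand): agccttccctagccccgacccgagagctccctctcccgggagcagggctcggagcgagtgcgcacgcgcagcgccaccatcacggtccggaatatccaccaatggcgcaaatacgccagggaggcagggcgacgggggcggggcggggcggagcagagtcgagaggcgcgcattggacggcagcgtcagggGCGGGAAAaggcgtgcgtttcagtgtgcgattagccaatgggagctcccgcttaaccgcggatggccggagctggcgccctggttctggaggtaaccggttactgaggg
FEN1 (chr11:61792661-61792960, + strand): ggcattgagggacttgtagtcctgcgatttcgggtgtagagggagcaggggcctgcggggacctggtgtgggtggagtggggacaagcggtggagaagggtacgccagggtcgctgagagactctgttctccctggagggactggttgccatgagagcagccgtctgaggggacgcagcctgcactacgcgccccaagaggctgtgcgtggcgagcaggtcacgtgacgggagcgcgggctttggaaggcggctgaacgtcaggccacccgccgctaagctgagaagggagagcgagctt
E2F1 (chr20:33686336-33686635, - strand): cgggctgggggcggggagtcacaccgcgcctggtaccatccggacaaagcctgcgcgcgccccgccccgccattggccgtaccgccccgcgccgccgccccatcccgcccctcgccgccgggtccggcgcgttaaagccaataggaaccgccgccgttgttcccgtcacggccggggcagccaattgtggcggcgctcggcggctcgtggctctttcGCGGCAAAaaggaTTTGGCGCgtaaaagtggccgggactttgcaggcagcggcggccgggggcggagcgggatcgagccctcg
In MCM6 the 4 matches form a pair of overlapping stretches, the first bases of which lie 152 and 90 bases before the start. The single match of CDT1 begins 35 bases before the start and that of PCNA 59 bases before it, each as the reverse complement GCGGGAAA. The E2F1 window, in the promoter of an E2F factor itself, holds matches that begin 33 and 20 bases before the start. The log2 change of the genes had a median of -0.01 in the 18 genes with a match and -0.03 in the 10 without, and each set held genes on both sides of 0, from -0.22 to 0.13 with a match and from -0.17 to 0.13 without.

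The MCM2 to MCM7 proteins form the ring-shaped helicase that unwinds DNA at the fork. All 6 had estimates below 0, and 3 of them, MCM4, MCM5 and MCM7, had groups that did not overlap. MCM5 (chr22:35796056-35821423 on GRCh37) had 23.1, 23.9 and 22.8 FPKM in target libraries, against 25.3, 25.2 and 26.7 FPKM in control libraries. Every target value lay below every control value, by at least the gap between 23.9 and 25.2 FPKM, and the log2 change was -0.14 (SE 0.04, limma adjusted p = 0.227). MCM4 (chr8:48872745-48890720) had 32.5, 30.9 and 34.5 FPKM in target libraries and 36.2, 35.2 and 38.5 FPKM in control libraries. The gap between its groups was narrower, between 34.5 and 35.2 FPKM, with a log2 change of -0.16 (SE 0.06, limma adjusted p = 0.261). MCM7 (chr7:99690351-99699563), whose introns host a cluster of microRNAs, had 56.2, 54.4 and 52.4 FPKM in target libraries and 59.0, 58.7 and 57.9 FPKM in control libraries. Its log2 change was -0.11 (SE 0.04, limma adjusted p = 0.279), but the sum of its listed transcripts gave 0.79. Those transcripts summed to between 0.43 and 1.25 times the gene value across libraries, so their sum may not cover the gene in every library.

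MCM3, the most abundant of the helicase genes, had 67.1, 65.3 and 74.2 FPKM in target libraries and 72.1, 74.4 and 76.1 FPKM in control libraries. Target library 3 lay among the controls while the other two target libraries lay below them (log2 change -0.11, limma adjusted p = 0.409). MCM2 averaged 68.8 ± 4.73 FPKM in target and 72.8 ± 5.37 FPKM in control libraries (SD, n = 3 each), and MCM6 averaged 35.4 ± 1.68 FPKM in target and 35.6 ± 0.627 FPKM in control libraries. These differences were smaller than the spread between libraries.

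CDC6 and CDT1 load the helicase and CDC45 becomes part of it when origins fire. CDT1, which is degraded or bound by geminin once S phase starts so that origins are licensed once, showed the smallest p of all 33 genes. CDT1 (chr16:88869621-88875666) had 74.6, 77.5 and 70.8 FPKM in target libraries, against 88.1, 82.6 and 90.0 FPKM in control libraries. All target values were below all control values, with means of 74.3 ± 3.35 FPKM in target and 86.9 ± 3.86 FPKM in control libraries (SD, n = 3 each). The log2 change was -0.22 (SE 0.05, 95% interval -0.35 to -0.10) with an unadjusted p of 0.00429 and a limma adjusted p of 0.143. Without each library in turn the change stayed between -0.26 and -0.19.

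CDC45 (chr22:19466982-19508135) went the other way, with 7.44, 7.20 and 7.53 FPKM in target libraries and 6.96, 6.65 and 6.46 FPKM in control libraries. The groups did not overlap and the log2 change was 0.13 (SE 0.05, limma adjusted p = 0.291). Over the 16 alternative settings the CDC45 change kept its sign but ran from 0.02 to 0.15. CDC6 was level, at 13.7 ± 0.328 FPKM in target and 13.7 ± 0.0685 FPKM in control libraries (SD, n = 3 each).

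**Figure D3:**
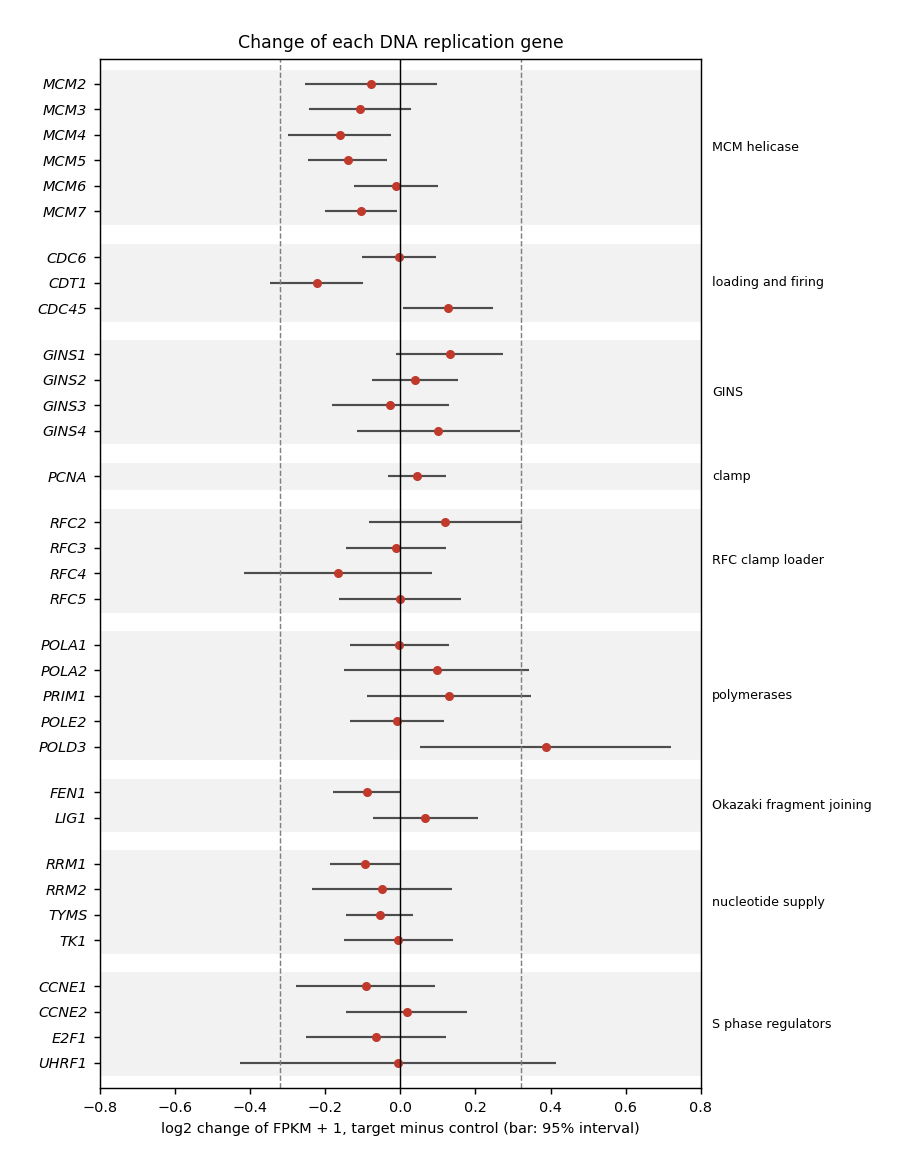
Log2 change of FPKM + 1, target minus control, of each replication gene (points) with its 95% interval (bars), grouped by role; dashed lines mark 1.25-fold either way. All 6 MCM genes lie left of 0, CDT1 reaches -0.22, and POLD3, at 0.39, has a wide interval from 0.05 to 0.72.

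GINS1 to GINS4 form the ring that joins CDC45 and MCM in the active helicase. GINS1 had 8.14, 7.16 and 7.60 FPKM in target libraries and 6.86, 7.10 and 6.68 FPKM in control libraries, groups that came close but did not overlap (log2 change 0.13, limma adjusted p = 0.346). GINS2, the most abundant subunit RNA, had 18.03, 17.7 and 18.2 FPKM in target libraries and 16.8, 17.2 and 18.4 FPKM in control libraries, which overlapped. GINS3 averaged 2.997 ± 0.103 FPKM in target and 3.08 ± 0.246 FPKM in control libraries, and GINS4 averaged 6.26 ± 0.592 FPKM in target and 5.77 ± 0.605 FPKM in control libraries (SD, n = 3 each). At the level of whole genes, no subunit of this complex passed the test.

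PCNA, the ring that holds polymerases on DNA, was among the least variable of the genes, with 75.4, 75.6 and 75.9 FPKM in target libraries and 72.2, 73.8 and 73.8 FPKM in control libraries. Target values were all above control values by a small margin (log2 change 0.05, 95% interval -0.03 to 0.12, limma adjusted p = 0.541). RFC opens PCNA and places it on DNA. RFC2, its most abundant small subunit RNA, had 19.8, 21.4 and 20.3 FPKM in target libraries and 19.2, 20.8 and 16.6 FPKM in control libraries, which overlapped. RFC3 averaged 12.1 ± 0.513 FPKM in target and 12.2 ± 0.587 FPKM in control libraries. RFC5 averaged 15.9 ± 0.698 FPKM in target and 16.0 ± 1.24 FPKM in control libraries. RFC4 averaged 10.4 ± 1.44 FPKM in target and 11.7 ± 0.786 FPKM in control libraries (SD, n = 3 each), with target library 2, at 8.74 FPKM, below all others.

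Among polymerase genes, POLA1, POLA2 and PRIM1 encode subunits of the polymerase alpha and primase complex, which starts each new strand. POLA1 had 18.2, 18.9 and 20.5 FPKM in target libraries and 19.5, 19.4 and 18.7 FPKM in control libraries, with no separation of the groups. POLA2 averaged 11.6 ± 1.44 FPKM in target and 10.8 ± 0.965 FPKM in control libraries, and PRIM1 averaged 16.6 ± 0.909 FPKM in target and 15.2 ± 1.81 FPKM in control libraries (SD, n = 3 each). POLE2, a subunit of the leading-strand polymerase epsilon, averaged 3.34 ± 0.142 FPKM in target and 3.37 ± 0.0541 FPKM in control libraries.

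POLD3 (chr11:74204896-74380162), a subunit of polymerase delta that also serves break-induced replication, had the largest estimate of all 33 genes. It had 7.46, 7.42 and 8.08 FPKM in target libraries and 6.62, 6.16 and 4.29 FPKM in control libraries. All target values were above all control values, and control library 3 lay well below the other two controls. The log2 change was 0.39 (SE 0.14, limma adjusted p = 0.266). Without control library 3 it was 0.23 (limma adjusted p = 0.261), so much of the estimate rested on that library.

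FEN1 trims the flaps of Okazaki fragments and LIG1 seals the nicks between them. FEN1 had 79.5, 81.7 and 78.7 FPKM in target libraries and 82.7, 86.2 and 86.5 FPKM in control libraries. Its groups did not overlap, with 81.7 FPKM the highest target and 82.7 FPKM the lowest control value (log2 change -0.09, SE 0.04, limma adjusted p = 0.307). The gene shares 4265 bases of its span with FADS2 on the same strand, and reads of the pair may not be fully separated. FADS2 itself was at 2.74 to 2.93 FPKM in target and 2.82 to 3.79 FPKM in control libraries, far below FEN1. LIG1 averaged 9.05 ± 0.383 FPKM in target and 8.60 ± 0.467 FPKM in control libraries (SD, n = 3 each).

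Ribonucleotide reductase (RRM1 and RRM2), thymidylate synthase (TYMS) and thymidine kinase (TK1) make the building blocks of DNA. RRM1, the most abundant of the 33, had 88.3, 86.7 and 88.5 FPKM in target libraries and 93.9, 97.1 and 90.6 FPKM in control libraries. The groups did not overlap (log2 change -0.09, SE 0.04, limma adjusted p = 0.305), though the sum of the RRM1 transcripts gave a change of the opposite sign, 0.18. In that sum 1 library stood apart: the leading transcript RRM1-001 had 70.3 FPKM in control library 2 and 99.4 to 110.9 FPKM in the other libraries. The listed RRM1 transcripts summed to between 0.83 and 1.30 times the gene value across libraries. RRM2, the subunit whose level follows S phase, averaged 18.8 ± 1.54 FPKM in target and 19.5 ± 1.37 FPKM in control libraries. TYMS averaged 44.4 ± 0.232 FPKM in target and 46.2 ± 1.25 FPKM in control libraries, without overlap. It shares 3255 bases with ENOSF1 on the opposite strand, and the strand of the reads is not given. TK1 averaged 61.2 ± 4.23 FPKM in target and 61.4 ± 2.35 FPKM in control libraries (SD, n = 3 each).

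Cyclins E1 and E2 activate CDK2 at the start of S phase, E2F1 activates transcription at the entry into S phase, and UHRF1 passes DNA methylation to the new strand. CCNE1 averaged 6.19 ± 0.188 FPKM in target and 6.69 ± 0.706 FPKM in control libraries, and CCNE2 averaged 4.76 ± 0.317 FPKM in target and 4.69 ± 0.285 FPKM in control libraries. E2F1 averaged 21.0 ± 1.24 FPKM in target and 22.0 ± 1.97 FPKM in control libraries (SD, n = 3 each). None of these 3 separated the groups. UHRF1 varied most within groups, with 24.7, 23.8 and 17.0 FPKM in target libraries and 17.7, 23.2 and 24.8 FPKM in control libraries. One library in each group was low, so the means were level (log2 change -0.01) but the 95% interval, -0.43 to 0.41, was the widest of the 33.

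Summed FPKM gave the pattern by complex. The 6 MCM genes summed to 278, 277 and 295 FPKM in target libraries and 305, 296 and 309.6 FPKM in control libraries, a ratio of 0.933 with the groups nearly touching. Loading and firing genes, led by CDT1, summed to 95.4, 98.4 and 92.3 FPKM in target and 109, 103 and 110.1 FPKM in control libraries, a ratio of 0.889. FEN1 and LIG1 had a ratio of 0.949 and the nucleotide supply genes one of 0.961, again without overlap. The sum of the 4 GINS genes was higher in target libraries with little scatter, though GINS2, GINS3 and GINS4 each overlapped between groups, at 35.0, 34.9 and 34.7 FPKM in target and 33.4, 33.1 and 33.1 FPKM in control libraries, a ratio of 1.05. RFC genes (ratio 1.00), polymerase genes (1.08) and S phase regulators (0.973) overlapped between groups. Sums follow their most abundant members, and no test was made on them.

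**Figure D4:**
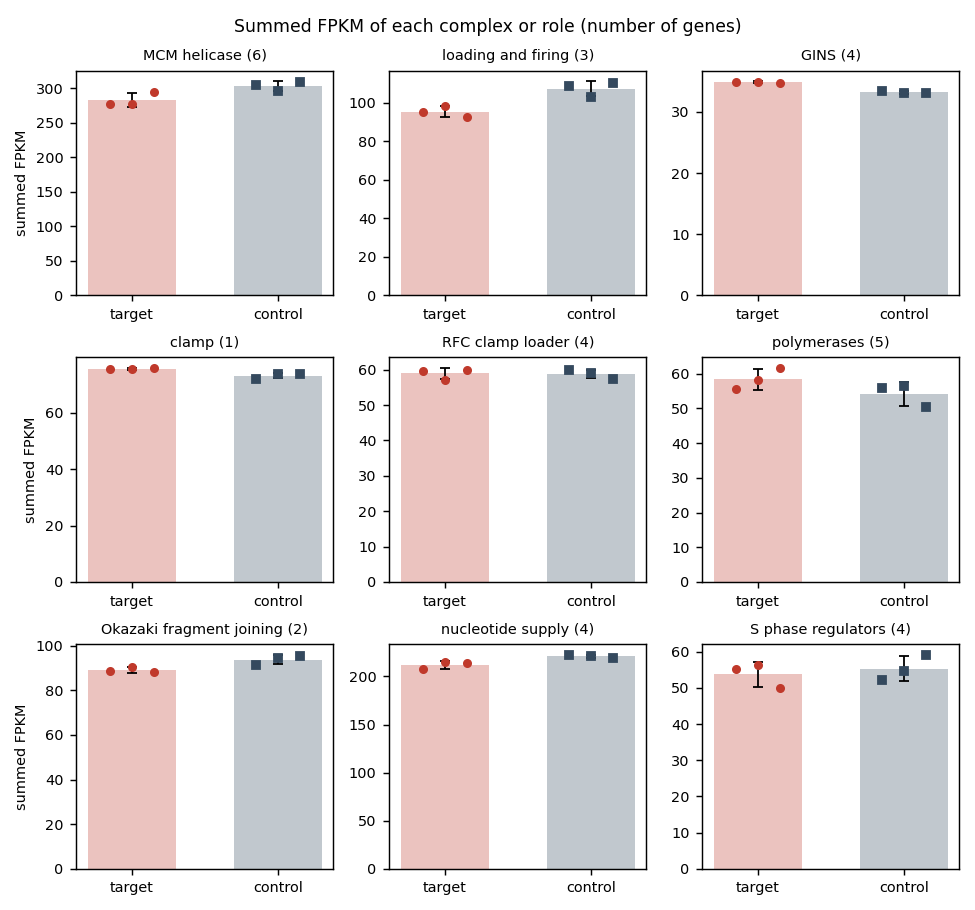
Summed FPKM of the genes of each role in target shRNA libraries (left bars, circles) and control shRNA libraries (right bars, squares); bars are means, whiskers SDs over 3 libraries, points libraries, and the number of genes is in brackets. The MCM sums average 283 FPKM in target and 303 FPKM in control libraries, while the RFC sums, 58.9 FPKM in target and 58.8 FPKM in control libraries, are level.

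GINS4 was the exception once transcripts were read. At this level 20890 transcripts were tested in a fit of their own and 60 passed, or 0.287%, and 2 of the 72 tested transcripts of replication genes were among them, both of GINS4 (chr8:41386725-41402565). GINS4-004 (ENST00000523277) had 6.73, 8.06 and 6.83 FPKM in target libraries and was close to 0 in control libraries, at 0.00202, 0.0860 and 0.00317 FPKM. GINS4-201 (ENST00000276533) had 1.29, 0.563 and 0.736 FPKM in target libraries and 8.59, 7.62 and 6.99 FPKM in control libraries. GINS4-201 thus made up 14.6%, 4.61% and 7.53% of the summed FPKM of the GINS4 transcripts in target libraries, against 88.8%, 90.0% and 86.4% in control libraries. GINS4-004 made up 75.9%, 66.1% and 69.8% in target libraries, against 0.0209%, 1.02% and 0.0392% in control libraries. The rest was GINS4-003, a shorter transcript, with 9.48%, 29.3% and 22.7% in target libraries and 11.1%, 8.94% and 13.6% in control libraries, which overlapped. The sum itself overlapped between groups, at 8.86, 12.2 and 9.78 FPKM in target and 9.67, 8.46 and 8.09 FPKM in control libraries. On the log2(FPKM + 1) scale GINS4-201 was lower by a change of -2.24 (SE 0.19, limma adjusted p = 0.0237) and GINS4-004 was higher (limma adjusted p = 0.00334), its fitted change of 2.99 being set by the pseudocount because the control values are near 0.

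GINS4-004 and GINS4-201 differ in few bases. In GENCODE 29, GINS4-004 has 7 exons and 3873 bases, of which 576 code for protein, and GINS4-201 has 8 exons and 3841 bases, of which 669 code. They share 3782 exonic bases, or 96.2% of the bases in either. GINS4-004 keeps 91 bases inside the gene that GINS4-201 lacks, and GINS4-201 has 43 more at the 5′ end and 16 more at the 3′ end. GINS4-004 and GINS4-201 averaged 3.62 and 4.30 FPKM over all libraries, so the filter at a mean of 5 FPKM left both untested. In the other alternative settings the call for GINS4-004 held in 12 of 14. It was lost with a pseudocount of 0.01 (limma adjusted p = 0.151) and with a replicate block (0.218). That for GINS4-201 held in 6 of 14, and was lost with pseudocounts of 0.1 (limma adjusted p = 0.0517) and 0.01 (0.0817) and with the block (0.322). It was also lost without target library 2 (limma adjusted p = 0.0873), target library 3 (0.0993), control library 1 (0.0830), control library 2 (0.101) or control library 3 (0.0867).

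Transcript estimates of other replication genes differed between libraries of the same group. Of the 29 genes with more than 1 listed transcript, 12 had a leading transcript whose share ranged over more than 25 percentage points within a group, GINS4 not among them. In those 12 the highest gene value of the 6 libraries was 1.12 to 1.46 times the lowest. In MCM3, the transcript MCM3-006 had 0.143, 0.0145 and 79.3 FPKM in target libraries and 75.6, 79.6 and 80.4 FPKM in control libraries. Another transcript of the gene, ENST00000616552, filled the gap, with 67.0, 40.0 and 0.449 FPKM in target libraries and 0.801, 0.791 and 0.605 FPKM in control libraries. Without target library 3 MCM3-006 would have passed (limma adjusted p = 5.97e-04), and with it the limma adjusted p was 0.692. These transcripts share 3078 exonic bases, or 95.8%, a likeness close to that of the GINS4 pair, but their exchange did not follow the groups.

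In TK1 and UHRF1 the exchange ran across groups. The share of TK1-001 was 94.9%, 42.0% and 30.8% in target libraries and 29.8%, 72.2% and 70.1% in control libraries. UHRF1-001 made up 78.4%, 82.0% and 31.6% of its gene in target libraries and 21.7%, 78.2% and 68.4% in control libraries. The libraries with a low UHRF1-001 share, target 3 and control 1, were the same that had the low UHRF1 gene values of 17.0 and 17.7 FPKM. CCNE2-201 made up 93.9%, 99.3% and 27.2% in target libraries and 99.4%, 99.0% and 99.8% in control libraries, so that a single target library stood apart. MCM5-002 made up 41.6%, 82.7% and 84.7% in target and 39.6%, 84.2% and 83.9% in control libraries, with library 1 of each group low. At the other end, CDT1-001 made up 98.6% to 99.3% of CDT1 in target and 98.7% to 99.1% in control libraries, and at 76.5, 79.5 and 72.7 FPKM in target libraries and 90.4, 84.8 and 92.4 FPKM in control libraries it followed the gene (log2 change -0.22, limma adjusted p = 0.488).

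MCM7 shows the limit of adding transcripts up. Its leading transcript MCM7-001 had 68.5, 30.4 and 54.8 FPKM in target libraries and 30.4, 22.5 and 27.03 FPKM in control libraries, while the gene value was lower in target libraries. The listed transcripts of MCM7 summed to between 0.43 and 1.25 times the gene value across libraries. Over all transcripts of replication genes that were named by their p, MCM4-001 (log2 change -0.15, limma adjusted p = 0.653) and RRM2-201 (-0.38, limma adjusted p = 0.681) were lower without overlap, at 43.0 to 46.8 FPKM in target and 48.7 to 51.7 FPKM in control libraries for MCM4-001 and at 7.36 to 9.08 FPKM in target and 9.43 to 13.1 FPKM in control libraries for RRM2-201. RRM2-001, the leading RRM2 transcript, was at 13.4 to 17.4 FPKM in target and 11.8 to 15.2 FPKM in control libraries. RFC2-012 had 4.95, 4.66 and 6.06 FPKM in target libraries and 5.68, 0.0395 and 0.0457 FPKM in control libraries, where control library 1 matched the target libraries. Without control library 1 its limma adjusted p was 0.0280, and with all libraries it was 0.715. The leading RFC2 transcript, RFC2-002, was at 19.8 to 20.6 FPKM in target and 16.1 to 24.8 FPKM in control libraries.

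**Figure D5:**
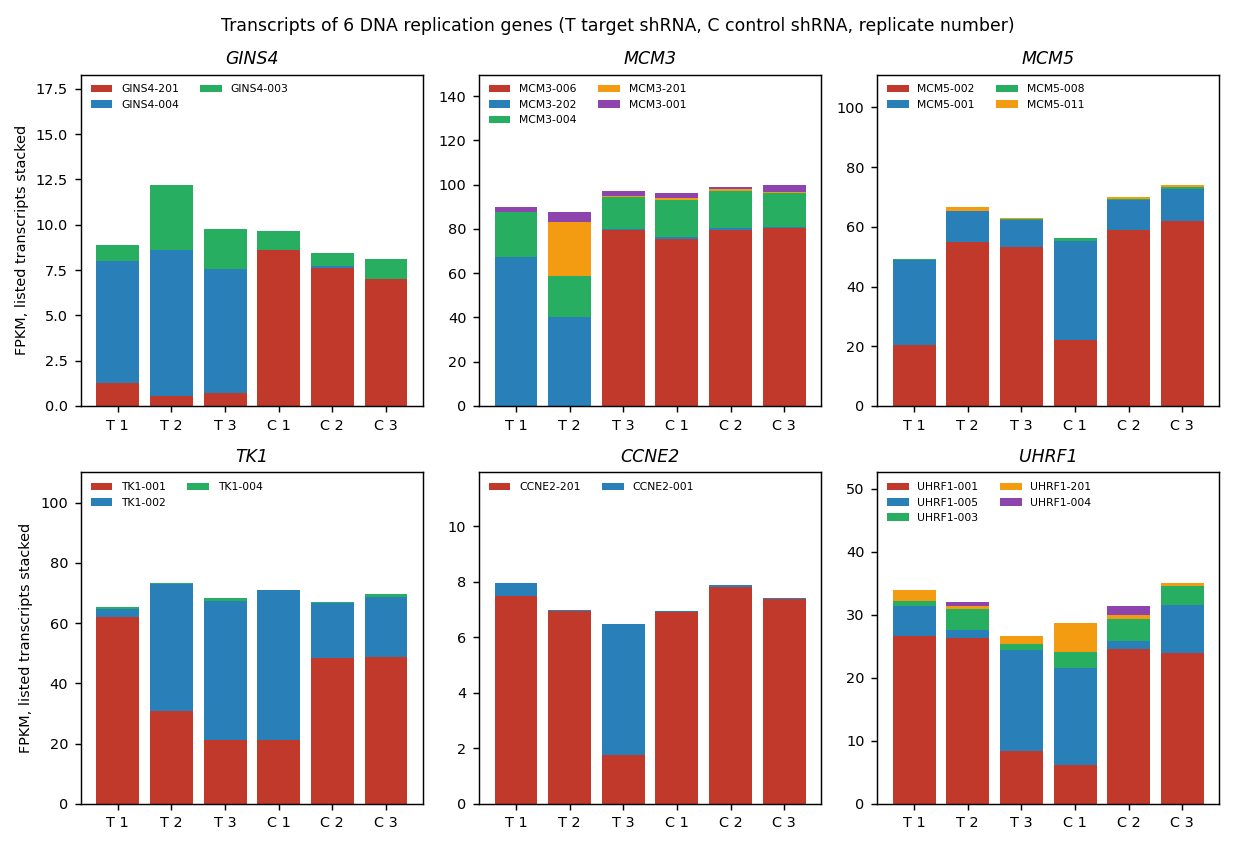
FPKM of the listed transcripts, stacked, in each target (T) and control (C) library for 6 replication genes. In GINS4 the red GINS4-201 gives way to the blue GINS4-004 in all 3 target libraries, at 6.73 to 8.06 FPKM, whereas in MCM3, MCM5, TK1, CCNE2 and UHRF1 the make-up differs between libraries of a group.

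No replication gene listed outside the 33 passed either. Of 93 further genes listed for origin licensing, firing, fork protection, clamp loading, polymerases, Okazaki fragments, nucleotide supply, E2F and RB control, and chromatin assembly, 91 were tested and 0 passed. Their median log2 change was 0.04, with 53 estimates above 0 and 38 below. This was close to the lean of all tested genes, which had a median of 0.03, with 6534 above and 4141 below. Of the 33 genes, 22 had estimates below 0, or 17 without target library 1. All 93 summed to 1249, 1235 and 1239 FPKM in target libraries and 1232, 1224 and 1207 FPKM in control libraries, higher in every target library. At an unadjusted p under 0.05, 6 of the 91 were higher in target libraries and 1 was lower, both smaller shares than the backgrounds of 11.4% and 4.71% over all tested genes. CDK4, the G1 kinase that releases E2F from RB, came nearest, with 35.7, 37.6 and 38.4 FPKM in target libraries and 32.0, 32.0 and 29.9 FPKM in control libraries (log2 change 0.24, limma adjusted p = 0.104). GART, an enzyme of purine synthesis, had 11.8, 12.01 and 11.8 FPKM in target libraries and 10.3, 10.3 and 9.70 FPKM in control libraries (log2 change 0.21, limma adjusted p = 0.121). In both, the groups were clearly apart.

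The other genes of smallest p in each role were weaker. POLE4, a subunit of polymerase epsilon, averaged 11.7 ± 1.17 FPKM in target and 9.97 ± 0.0862 FPKM in control libraries (log2 change 0.21, limma adjusted p = 0.261). CCNA2, the cyclin of S phase and G2, averaged 22.6 ± 0.750 FPKM in target and 20.6 ± 0.647 FPKM in control libraries (log2 change 0.12, limma adjusted p = 0.278). RPA1, the large subunit of the single-strand binding protein, was lower, at 19.4 ± 0.476 FPKM in target and 21.7 ± 1.42 FPKM in control libraries (log2 change -0.15, limma adjusted p = 0.279). ORC2 of the origin recognition complex (log2 change 0.12), RNASEH2B of ribonuclease H2 (0.21), the histone chaperone ASF1A (0.11) and RFC1, the large subunit of the clamp loader (-0.07), had limma adjusted p-values of 0.315, 0.315, 0.402 and 0.490.

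Mitosis genes, set beside the replication genes as the other wave of the cell cycle, leaned to the higher side of 0, as did all tested genes. Of 26 listed, all were tested and 0 passed. The median log2 change was 0.07, with 19 estimates above 0 and 7 below, where the replication genes had a median of -0.01, with 11 above and 22 below. All tested genes had a median of 0.03, with 6534 above and 4141 below, so part of the lean of the mitosis genes was that of the whole table. At an unadjusted p under 0.05, 8 mitosis genes were higher and 0 lower, against the backgrounds of 11.4% and 4.71% given above. CCNB2, a cyclin of mitosis, had 18.9, 19.4 and 19.9 FPKM in target libraries and 17.7, 17.8 and 16.6 FPKM in control libraries (log2 change 0.15, limma adjusted p = 0.215). The difference between the lists was not tested.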

How the data were processed

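The authors deposited 2 tables of FPKM, per gene and per transcript, for the 6 libraries; no counts were used. Sample titles gave each library's group and number. Per the labels, total RNA was isolated with Trizol and went into Illumina libraries; the builds are hg19 and GRCh37, per the submitters' processing notes. Aligner, quantification tool, annotation and strandedness: not given in the sources used here. All genes in the table are protein-coding, and each has a mean of at least 0.500 FPKM in its higher group.

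FPKM were analysed as log2(FPKM + 1), which understates changes of low genes, with limma 3.58.1 (trend) in R 4.3.3, keeping features of at least 1 FPKM in at least 3 of 6 libraries. The Benjamini-Hochberg adjustment ran over each whole table, with a threshold of 0.05. The fits were tested on simulated data. Python 3.11.15, pandas 2.3.3 and matplotlib 3.10.9 read tables and drew figures. FPKM divides reads between overlapping genes and transcripts: 9 of the 33 genes overlap another gene in the table, 2 of them on the same strand.

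The members and all lists were chosen with earlier results of these data known. Every member is named, in full the 6 of smallest p and the highest of each role, with transcripts past the threshold, the 6 next by p, their genes' leading transcripts, and the smallest p in each pathway role. CCNB2, the overlapping genes and the transcripts of TK1, UHRF1, CCNE2 and MCM5 were chosen after their values were seen. Alternatives were pseudocounts of 0.1 and 0.01, unfiltered genes, only genes averaging 5 FPKM or more, quantile normalization, median rescaling, limma without trend or robust, a replicate block, transcript sums, and leaving out each library. Median rescaling and leaving out libraries for the complex sums, alternatives for single transcripts, and the marker sum without CLDN4 were added after seeing the data.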

Additional observations from a re-analysis of the deposited data

How the results depend on the processing

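No replication gene passed under any of the 16 alternatives. Of their single changes under these alternatives 495 kept their sign and 30 reversed. Log2 changes reversed for CCNE2 under quantile normalization (-0.0140), median rescaling (-0.0122) and transcript sums (-0.0507), and under transcript sums for MCM7 (0.794), CDC6 (0.0222), RFC3 (0.0241) and RRM1 (0.178). Others crossed 0 when each library was left out in turn, with ranges of -0.0470 to 0.0189 for MCM6, -0.0191 to 0.0131 for CDC6, -0.0754 to 0.0108 for GINS3, -0.0472 to 0.0160 for RFC3, -0.0628 to 0.0308 for RFC5, -0.0482 to 0.0324 for POLA1, -0.0356 to 0.00845 for POLE2, -0.106 to 0.00837 for RRM2, -0.0554 to 0.0426 for TK1, -0.0225 to 0.0570 for CCNE2, -0.146 to 0.155 for UHRF1, and -0.0193 to 0.277 for the transcript RFC2-002. The number of genes called was 52 among those averaging 5 FPKM or more, 27 by transcript sums and 23 to 42 without each library, where the main result was 80. For transcripts it was 39 and 15 with pseudocounts of 0.1 and 0.01, 18 among those averaging 5 FPKM or more and 33 to 53 without each library, where the main result was 60. For transcripts of replication genes it was 1 and 0 with those pseudocounts, 0 among those averaging 5 FPKM or more and 1 to 2 without each library, where the main result was 2. The median log2 change of the 33 genes was -0.0411 under median rescaling and -0.0356 to -0.00157 without each library. Estimates below 0 numbered 17 without target library 1 and 19 by transcript sums, where the main result was 22. Genes lower at an unadjusted p under 0.05 numbered 2 without target library 1, without target library 2 or by transcript sums. That number was 8 under median rescaling, where the main result was 6. Median rescaling also moved the log2 ratio of the summed FPKM to 0.0346 for GINS, 0.01001 for PCNA, -0.0318 for RFC, -0.111 for FEN1 with LIG1 and -0.0937 for nucleotide supply. Fewer features or libraries enter where genes or libraries are left out, and otherwise the cause was not tested. Depth is unknown, so the counting error of low genes such as GINS3 and POLE2 has no estimate.

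With the replicate block, 10 genes and 0 transcripts were called, among them 0 replication genes and 0 of their transcripts. The replicate numbers showed no clear pairing of the libraries: deviations of same-numbered libraries from their group means correlated at -0.01, 0.02 and 0.07 over genes. Target library 1 correlated best with control library 2 and target library 2 with control library 1, but target library 3 with control library 3. Correlations this low cannot exclude a pairing, and the share of MCM5-002 was low in library 1 of both groups.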
